A study of Caenorhabditis elegans with 357 samples.

Results

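The nhr genes of Caenorhabditis elegans encode nuclear hormone receptors, and the transcripts of 235 of them were followed through the fourth larval stage (L4) in single animals. They were taken by symbol, nhr with a number, from the genes listed for both strains, with a mean of at least 1 RPM over all animals. RPM are reads scaled to the same total of reads in genes per library. Of 265 such symbols, 264 were listed for both strains, and 26 of these were under 1 RPM. The receptors nhr-23, nhr-25, nhr-73, nhr-74 and nhr-80 were left out by name. nhr-80 was listed for tph-1 only, and nhr-73 was also under 1 RPM. The 235 receptors are part of 19364 genes listed for both strains, of which 16776 reached the same mean and were tested. Because the mean level chose the members, it is given as a description only. The 3 members just inside the threshold were nhr-111, nhr-81 and nhr-38 at 1.03, 1.06 and 1.07 RPM, and the 3 receptors just outside it were nhr-269, nhr-26 and nhr-188 at 0.987, 0.977 and 0.966 RPM.

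The tph-1 group held 164 animals of strain MT15434, which carries the tph-1(mg280) II allele, and the N2 group held wild-type animals, 357 animals in all. tph-1 encodes the tryptophan hydroxylase that starts serotonin synthesis; the group is 1 strain with 1 allele and no other treatment. Animals of both groups grew singly from the egg on agar with UV-killed OP50 bacteria, were imaged, and were then lysed whole for 1 polyA RNA library each. The labels give the minutes each animal had spent in L4, from 9.59 to 596 min in tph-1 and from 10.7 to 599 min in N2. Cuts at 200 and 400 min gave an early, a middle and a late window, with 47, 70 and 47 animals in tph-1 and 49, 67 and 77 in N2. A number in the label titles divides the animals into 4 tph-1 sets and 8 N2 sets. The labels do not define it, and every set holds 1 strain.

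Nuclear hormone receptors are transcription factors with a zinc-finger domain that binds DNA and a domain that in many members binds a small lipophilic ligand. The C. elegans family is much larger than that of insects or vertebrates, mainly through duplicated relatives of the vertebrate receptor HNF4, and most members have no known ligand or role. Described members act in fat storage and oxidation, in the response to vitamin B12 and propionate, in detoxification and intestinal defence, and in moulting, vulval and embryonic development.

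The recovered reads per animal ranged from 437993 to 5175666 (median 1764816) in tph-1 and from 587469 to 11544404 (median 2922062) in N2. A single read was worth 0.193 to 2.28 RPM in tph-1 and 0.0866 to 1.70 RPM in N2. A receptor listed at 0 in an animal may therefore have been present at up to 3 reads, which is 0.580 to 6.85 RPM in tph-1 and 0.260 to 5.11 RPM in N2. The labels name no molecular identifiers, so such limits cover counting error only. Early tph-1 libraries were broader than the others: a median of 16504 genes reached 1 RPM early, against 15002 and 15031 in the middle and late windows of tph-1 and 14496, 14712 and 14165 in the 3 windows of N2. Of the 47 early tph-1 animals, 29 belonged to set 4. Reads of the tph-1 gene itself were found in both strains, with a highest level of 19.3 RPM and a median of 1.81 RPM in tph-1 and 26.9 and 2.73 RPM in N2; a total over the gene does not show which part of it was read, so it does not check the allele.

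Together the receptors were highest at the start of L4 and lower at its end in both strains. The lowest, median and highest summed levels of the 235 receptors were 1216, 2395 and 4697 RPM early, 698, 1363 and 3324 RPM in the middle and 561, 1009 and 2505 RPM late in tph-1. In N2 they were 1383, 2443 and 4677 RPM early, 761, 1783 and 3682 RPM in the middle and 657, 1005 and 2722 RPM late. The median late sums of the 2 strains were nearly alike, while the middle sum was lower in tph-1. In each strain the late and early ranges overlapped. Whole animals were sequenced, so fewer cells that express a receptor and less of its RNA per cell cannot be told apart.

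**Figure D1:**
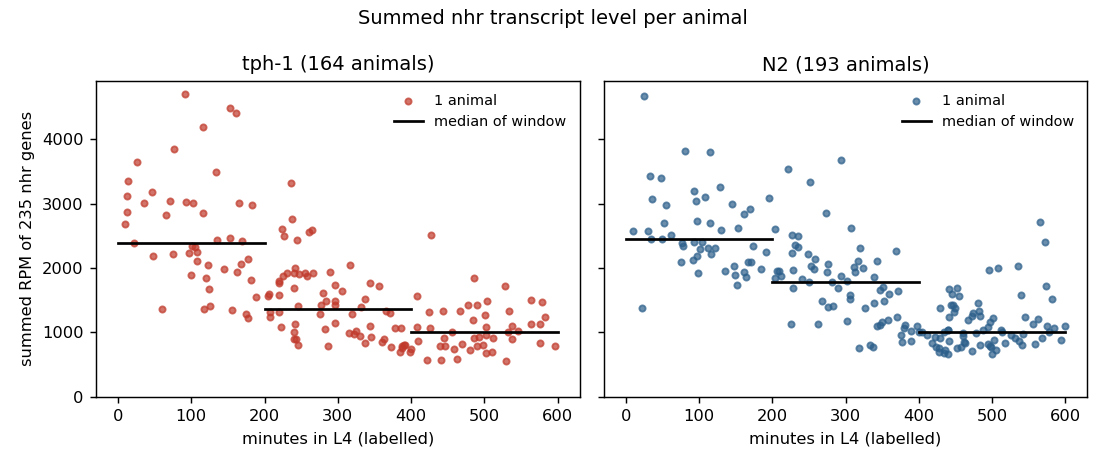
Summed RPM of the 235 nhr genes in each animal against its labelled minutes in L4, with tph-1 left and N2 right; each point is 1 animal and each black line the median of a window. The medians step down through the 3 windows in both strains, to 1009 RPM late in tph-1 and 1005 RPM late in N2.

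The late window was compared with the early one in limma on log2(RPM + 1) with set as a covariate, a scale that understates the change of low genes. A receptor was called when its adjusted p was under 0.05 and its log2 change at least 1. In tph-1, 88 of 235 receptors (37.4%) fell late against early, where 20.9% of all genes tested did, and 0 rose, where 8.85% of all genes did. In N2, 18 receptors (7.66%) fell, where 7.19% of all genes did, and 0 rose, where 10.1% of all genes did. From RPM and without a minimum change, 224 receptors in tph-1 and 123 in N2 had an adjusted p under 0.05 and a negative change, beside 12192 and 6519 of 16776 genes. A positive one was found for 0 receptors in either strain, beside 2162 and 2226 of all genes. At an unadjusted p under 0.05, 0 were positive in tph-1 and 1 in N2, beside 2178 and 2356 of all genes. With edgeR's quasi-likelihood test on recovered reads, 1 receptor rose in each strain, nhr-12 in tph-1 and nhr-41 in N2; nhr-12 and the other genes outside the naming rule were chosen after their values were seen.

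The median late change of the receptors was -0.92 in tph-1, beside -0.67 over all genes, and -0.50 in N2, beside -0.33 over all genes. Rescaling the libraries by TMM factors moved the median of all genes by 0.50 in tph-1 and by 0.20 in N2. From RPM 3 receptors in tph-1 and 13 in N2 had a positive late change, and after rescaling 20 and 29. Among these, nhr-41 and nhr-76 then had an adjusted p under 0.05 in both strains, short of the size threshold. Relative to all genes the receptors' median was lower by almost the same amount on both scales: the difference was -0.24 from RPM and -0.25 after rescaling in tph-1, and -0.18 on both scales in N2. From RPM, 79.6% of the receptors in tph-1 and 73.2% in N2 lay below the median of all genes, and after rescaling 195 of 235 receptors in tph-1 and 76.2% in N2. Rescaling divides every gene of a library by the same factor, though on log2(RPM + 1) low genes move less than high ones. In tph-1 the median of all genes moved from -0.56 to 0.044 at 10 RPM or more. From 1 to under 3 RPM it moved from -0.70 to -0.31. The receptors and all genes were thus shifted together, so these differences and shares do not test the choice of scale. Calls depended on the scale: after rescaling 9 receptors (3.83%) fell in tph-1 and 7 (2.98%) in N2. Of all genes, 5.01% fell in tph-1 and 4.12% in N2 on that scale, so the receptors' share was then below that of all genes. The counts of receptors were 7 and 5 with a pseudocount of 5, and 24 and 11 with edgeR. The receptors that fell on both scales in both strains were nhr-234, nhr-235, nhr-263, nhr-265, nhr-7 and nhr-270. nhr-91, nhr-97 and nhr-113 did so in tph-1, and nhr-114 in N2.

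The receptors' median was below that of all genes at each level. Receptors with a mean of at least 10 RPM (45 genes), from 3 to under 10 RPM (107) and from 1 to under 3 RPM (83) had median late changes of -0.96, -0.97 and -0.80 in tph-1, beside -0.56, -0.79 and -0.70 for all genes in the same ranges. In N2 the medians of the receptors were -0.66, -0.60 and -0.34, beside -0.39, -0.36 and -0.22 for all genes.

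**Figure D2:**
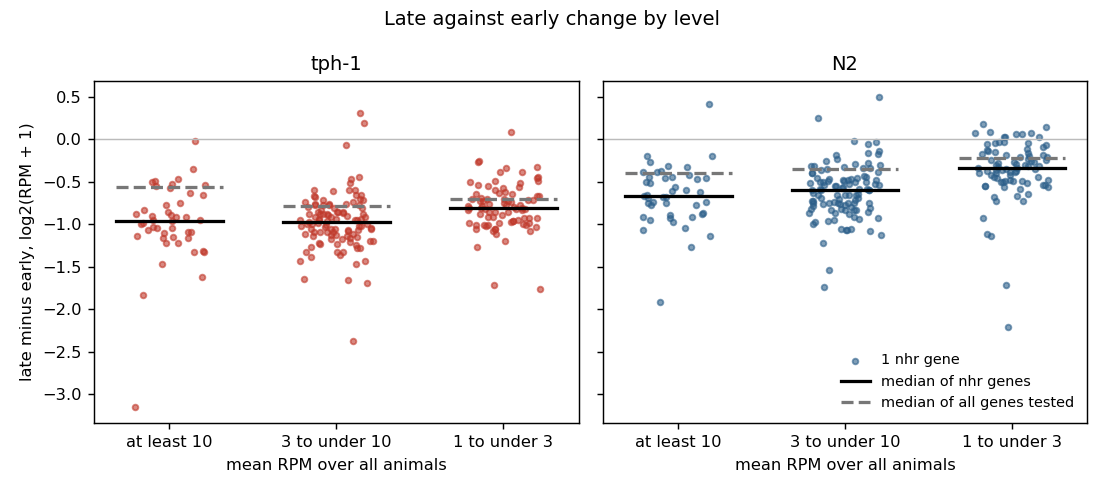
Late minus early change on the log2(RPM + 1) scale of each nhr gene, grouped by mean RPM, in tph-1 (left) and N2 (right); each point is 1 gene, the solid line is the median of the nhr genes and the dashed line that of all genes tested. In each of the 3 ranges of both strains the solid line lies below the dashed one.

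The tph-1 values were alike in sign across sets: the median late change of the receptors within tph-1 sets 1 to 4 was -0.81, -1.71, -1.11 and -1.23, beside -0.56, -1.28, -0.86 and -0.75 for all genes. Of these, tph-1 set 2 held 2 early animals and tph-1 set 4 held 1 late animal, so both values rest on few animals. In N2, early and late animals met in 4 of 8 sets, each with 1 or 2 late animals. The medians there were -1.42 in set 1, -1.28 in set 3, -0.61 in set 4 and -0.00074 in set 5, beside -1.06, -0.85, -0.39 and 0.27 for all genes. Without set 5 the N2 count of receptors that fell became 44, without set 8 it became 33, and without the set covariate it became 87, so the N2 change depends on how sets are treated. For that reason a fitted N2 change, taken within sets, can differ from what the window medians below would give.

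Tissue markers moved along L4 as well. The summed median of 7 intestinal markers was 3324, 2368 and 1329 RPM early, middle and late in tph-1 and 4245, 1729 and 1847 RPM in N2, with animals ranging over 593 to 4729 RPM in tph-1 and 24.9 to 6024 RPM in N2. Of these 7, 3 fell in tph-1 and 1 in N2. The 6 sperm markers summed to medians of 52.5, 182.7 and 601 RPM in tph-1, where 3 rose, and 22.8, 125.7 and 489 RPM in N2, where 5 rose, with animals ranging over 5.41 to 1274 RPM in tph-1 and 0.958 to 1399.6 RPM in N2. The 7 germline markers summed to 448, 511 and 734 RPM in tph-1, where 0 rose, and 558, 624.9 and 799 RPM in N2, where 1 rose, over ranges of 48.5 to 1496 RPM in tph-1 and 15.1 to 1687 RPM in N2. The 5 hypodermal and seam markers summed to 470.4, 314 and 59.1 RPM in tph-1 and 436, 170.7 and 57.5 RPM in N2, over ranges of 33.04 to 851 RPM in tph-1 and 34.05 to 1164 RPM in N2, and 3 of them fell in each strain. Of 6 neuronal markers 2 fell in tph-1 and 0 in N2, and of 5 muscle markers 2 fell in tph-1 and 1 in N2. No marker of these lists was at 0 in all animals of a window. Of 4 genes that mark the stage, 1 rose in tph-1 and 2 in N2. The part of these shifts in the receptor changes was not tested.

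Time courses were also fitted as smooth curves of the minutes (a natural spline), and a receptor was called when the curve's adjusted p was under 0.05 and its fitted range at least 1 log2 unit between 30 and 570 min. In tph-1, 207 receptors (88.1%) changed along L4, where 73.5% of all genes did. In N2, 50.2% of the receptors changed, where 46.1% of all genes did. In all, 112 changed in both strains, 95 in tph-1 only by the threshold, 6 in N2 only, and 22 in neither. This split does not test a difference between strains. It was not counted over all genes, of which a larger share was called in tph-1 than in N2 too. After TMM rescaling 53 receptors in tph-1 and 58 in N2 were called, of which 53 and 57 were among those called from RPM, and 34 were called in both strains. These were 22.6% of the receptors in tph-1 and 24.7% in N2, where 37.5% and 36.5% of all genes were called. The receptors' share was thus above that of all genes from RPM, in N2 by little, and below it after rescaling. With a pseudocount of 5 the counts were 65 in tph-1 and 38 in N2, and with edgeR 96 in tph-1 and 77 in N2.

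Peaks of the called receptors lay mostly at the very start of the stage. In tph-1, 90.3% of the 207 peaked before 100 min, beside 65.9% of all called genes, and 85.02% had their highest fitted value at the first time read, 30 min. In N2, 86 receptors (72.9% of those called) peaked before 100 min, beside 38.2% of all called genes, and 78 had the highest value at 30 min. A receptor that falls throughout L4 counts as peaking at 30 min, so its true maximum may lie before the stage. The fitted lows were at 400 to under 500 min for 149 receptors in tph-1 and 54 in N2, and at 300 to under 400 min for 6 in tph-1 and 40 in N2. Among the 112 called in both strains, 93 had fitted peaks within 50 min of each other. Most called receptors of each strain peaked at the first time read, so this count is no measure of matched timing. It was not made over all genes. After rescaling, 35 of 53 called receptors in tph-1 and 32 of 58 in N2 peaked before 100 min.

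**Figure D3:**
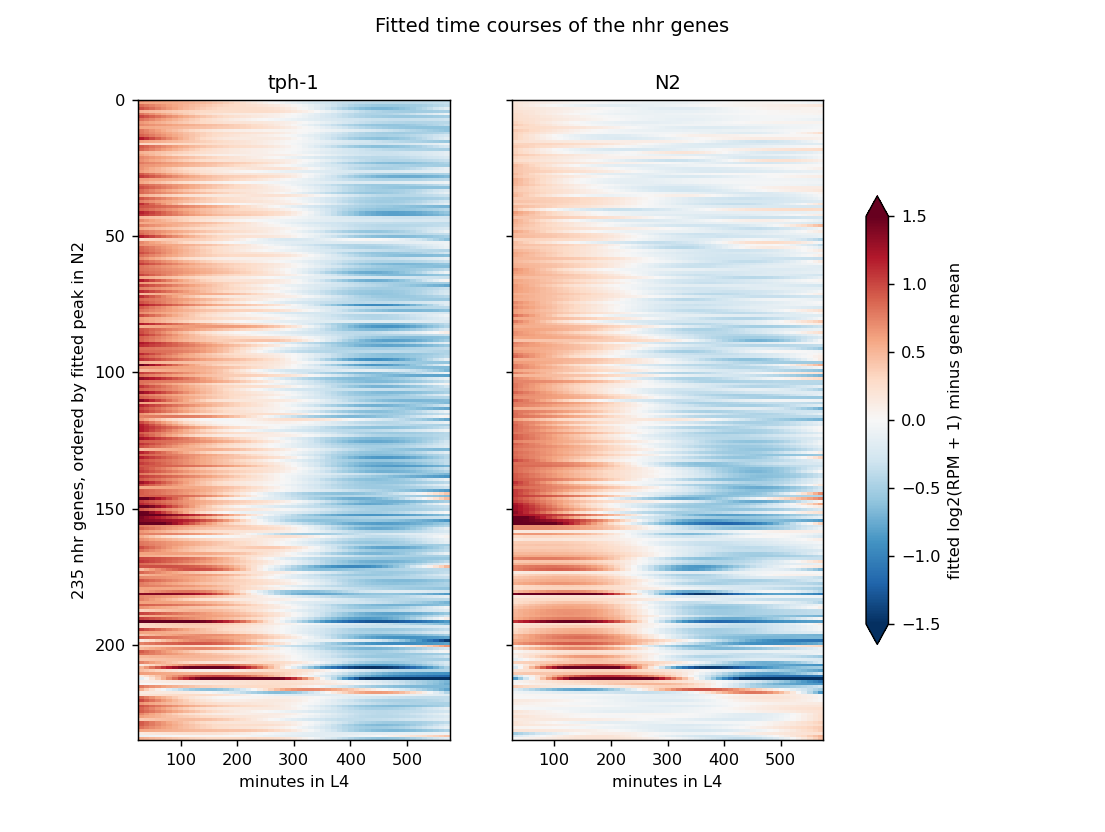
Fitted log2(RPM + 1) of the 235 nhr genes, 1 row each, minus the gene's own mean over the times shown, in tph-1 (left) and N2 (right) against minutes in L4; rows run in the order of the fitted peak in N2. Red at the left edge fills most rows in both strains, and the few rows that are red in mid-stage belong to receptors such as nhr-234, which peaked at 210 min in tph-1 and 200 min in N2.

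The most strongly moving receptor was nhr-234 (WBGene00012596, chromosome II, 12636678 to 12638491, plus strand, WBcel235). In tph-1 its lowest, median and highest levels were 5.97, 29.9 and 67.9 RPM early, 3.31, 26.3 and 103.6 RPM in the middle and 0, 1.88 and 8.04 RPM late. In N2 they were 1.78, 31.5 and 83.4 RPM early, 1.84, 25.5 and 137.7 RPM in the middle and 0, 1.51 and 7.06 RPM late. Early and middle animals were high and late ones low, the ranges overlapping at their ends, and 45 of 47 late tph-1 animals and 69 of 77 late N2 animals still had a read. The curve spanned 4.23 log2 units with a peak at 210 min in tph-1 (limma adjusted p = 1.2e-62) and 4.32 with a peak at 200 min in N2 (adjusted p = 3.25e-42). It was also the only receptor called higher in the middle window than the average of the 2 outer windows, by 1.48 ± 0.16 in tph-1, where 2.6% of all genes were, and by 1.37 ± 0.17 in N2, where 3.02% of all genes were. Its middle median was not above its early one in either strain. The late change was -3.15 ± 0.24 in tph-1 and -1.91 ± 0.30 in N2.

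The next protein-coding gene on the same strand is another receptor, nhr-235 (WBGene00012597, chromosome II, 12640670 to 12642917, plus strand), 2178 bases downstream. Its lowest, median and highest levels were 1.804, 12.1 and 33.1 RPM early, 0, 2.20 and 11.3 RPM in the middle and 0, 0.965 and 9.28 RPM late in tph-1. The N2 levels were 3.31, 11.4 and 25.4 RPM early, 0, 2.01 and 33.03 RPM in the middle and 0, 0.734 and 7.24 RPM late. Both neighbours were low late, but the middle median of nhr-235 was already far below its early one, while that of nhr-234 was close to it; early and late ranges of nhr-235 overlapped. The fitted peak of nhr-235 came at 70 min in tph-1 and 130 min in N2, and its late change was -2.37 ± 0.22 in tph-1 and -1.54 ± 0.27 in N2 (limma adjusted p = 2.72e-19 and 2.82e-07).

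nhr-91, related to the vertebrate germ cell nuclear factor (WBGene00003681, chromosome X, 15309369 to 15314899, plus strand), peaked inside the stage. In tph-1 its lowest, median and highest levels were 5.41, 29.1 and 93.1 RPM early, 0.314, 11.1 and 66.2 RPM in the middle and 0.384, 5.91 and 17.9 RPM late, and in N2 5.34, 23.6 and 85.6 RPM early, 0, 8.62 and 146.5 RPM in the middle and 1.11, 5.07 and 24.7 RPM late. The ranges of all windows overlapped. Its fitted course spanned 3.10 log2 units in tph-1 with a peak at 150 min, and 3.27 in N2 with a peak at 170 min. The late change was -1.83 ± 0.30 in tph-1 (limma adjusted p = 4.1e-08) and -0.66 ± 0.31 in N2, where it did not pass the test (adjusted p = 0.0584).

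Among receptors with no role described here, nhr-97 (WBGene00003687, chromosome IV, 9757641 to 9764499, plus strand) was the most abundant of those that fell in both strains. Its lowest, median and highest levels were 45.7, 81.8 and 151.3 RPM early, 10.7, 45.5 and 107 RPM in the middle and 10.7, 21.98 and 58.6 RPM late in tph-1. N2 animals had 61.6, 90.4 and 222 RPM early, 15.4, 48.9 and 171.97 RPM in the middle and 9.84, 19.6 and 46.02 RPM late. In N2 the early and late animals did not overlap, and in tph-1 they did. Its curve was much alike in both strains, with peaks at 130 min in tph-1 and 140 min in N2 and late changes of -1.62 ± 0.13 in tph-1 and -1.14 ± 0.15 in N2. nhr-34, which had among the smallest p of the time fits, peaked at 70 min in tph-1 and 90 min in N2, with window medians of 31.5, 12.4 and 12.6 RPM in tph-1 and 33.2, 13.997 and 11.99 RPM in N2. nhr-46 had medians of 54.03, 31.7 and 22.1 RPM in tph-1 and 68.5, 47.5 and 23.1 RPM in N2 and changed late by -1.11 ± 0.10 in tph-1 and -0.95 ± 0.10 in N2, the second below the size threshold.

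Several receptors of low level fell as far. nhr-263 (WBGene00017367, chromosome V, 7340403 to 7342042, minus strand) had lowest, median and highest levels of 1.23, 4.62 and 13.6 RPM early, 0, 0.575 and 4.36 RPM in the middle and 0, 0.322 and 3.17 RPM late in tph-1. Levels in N2 were 2.40, 5.70 and 12.8 RPM early, 0, 0.808 and 8.67 RPM in the middle and 0, 0.423 and 2.50 RPM late. Every early animal of both strains had a read of nhr-263, while 26 of 47 late tph-1 animals and 51 of 77 late N2 animals had one. Its late change was -1.71 ± 0.16 in tph-1 and -1.71 ± 0.18 in N2 (limma adjusted p = 6.64e-20 and 6.81e-16). nhr-7 (WBGene00003606, chromosome IV, 11266265 to 11271362, minus strand) had 0, 9.85 and 26.4 RPM early, 0, 2.14 and 14.1 RPM in the middle and 0, 1.76 and 6.60 RPM late in tph-1 as its lowest, median and highest levels. In N2 it had 3.42, 12.7 and 70.1 RPM early, 0, 2.59 and 18.9 RPM in the middle and 0, 1.93 and 11.95 RPM late. Early animals were mostly above late ones with overlap in both strains. It fell in both, with late changes of -1.65 ± 0.23 in tph-1 and -1.74 ± 0.28 in N2. In N2 it was, with nhr-265, 1 of 2 receptors (0.851%) that were lower in the middle than the average of the 2 outer windows, with a value of -1.05 ± 0.16 for nhr-7, where 2.58% of all genes were. The late medians of both genes were lower still, so the middle was not their lowest window. Without N2 set 2, 6 or 8, 0 receptors were called there, and 1 receptor passed without set 1, 3 or 4. In tph-1, 0 receptors passed that test with limma, where 2.17% of all genes were lower, and 1, nhr-265, passed with edgeR. At an unadjusted p under 0.05, 48 of 235 receptors had a negative value there, beside 3733 of 16776 genes.

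nhr-270 and nhr-113 complete the group that fell on both scales. The window medians of nhr-270 were 7.95, 1.90 and 1.29 RPM in tph-1 and 6.34, 1.23 and 0.841 RPM in N2, with peaks at 30 min in both strains. nhr-113 had medians of 4.89, 3.43 and 0.844 RPM in tph-1 and 5.56, 5.63 and 1.01 RPM in N2 and peaked later, at 170 min in tph-1 and 190 min in N2.

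Against this early pattern, 14 receptors called in both strains peaked at 100 min or later in both, and 10 of the 14 were called in both strains after rescaling too, again with peaks at 100 min or later. No such count was made over all genes. These 14 are a part of 112 receptors called in both strains from RPM, while after rescaling 15 of 34 called in both peaked at 100 min or later in both, and 4 of them at 200 min or later, so the share of late peaks depends on the scale. Most of them peaked between 100 and 200 min: nhr-22, nhr-91, nhr-97, nhr-113, nhr-114, nhr-129, nhr-136, nhr-156, nhr-168 and nhr-205. Peaks at 200 min or later in both strains were found for nhr-234, nhr-41 and nhr-12, and after rescaling also for nhr-153, at 250 min in tph-1 and 260 min in N2. nhr-94 had a peak at the last time read, 570 min, in tph-1 and at 150 min in N2.

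nhr-41, the homolog of the insect receptor DHR78 (WBGene00022423, chromosome IV, 1386215 to 1399353, plus strand), was highest in mid-stage. Its lowest, median and highest levels in tph-1 were 0, 5.79 and 21.97 RPM early, 0.914, 9.10 and 21.6 RPM in the middle and 0, 6.30 and 17.2 RPM late. In N2 they were 0.361, 3.79 and 24.4 RPM early, 0.926, 10.7 and 52.97 RPM in the middle and 0, 5.92 and 25.8 RPM late. All windows overlapped, and the middle median was the highest of the 3 in each strain. The fitted peak came at 320 min in tph-1 over a range of 1.50 log2 units (limma adjusted p = 5.59e-09) and at 360 min in N2 over 1.72 (adjusted p = 1.33e-10). Its late change was positive in both strains on both scales but did not pass the test from RPM, at 0.19 ± 0.24 in tph-1 and 0.50 ± 0.27 in N2. After TMM rescaling it was 0.74 in tph-1 (limma adjusted p = 0.00148) and 0.70 in N2 (adjusted p = 0.0155), short of the size threshold.

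nhr-12 (WBGene00003611, chromosome V, 10082133 to 10084049, minus strand) peaked later still. In tph-1 its lowest, median and highest levels were 0.775, 3.68 and 18.97 RPM early, 0, 4.01 and 10.5 RPM in the middle and 0, 7.74 and 22.6 RPM late, and in N2 1.53, 5.16 and 12.7 RPM early, 1.69, 5.13 and 27.8 RPM in the middle and 0, 6.47 and 18.2 RPM late. The late median was the highest of the 3 in each strain, and the windows overlapped. The fitted peak was at 450 min in both strains, over 1.29 log2 units in tph-1 (limma adjusted p = 1.28e-07) and 1.67 in N2 (adjusted p = 2.64e-16). In N2 a decline followed, with the fitted low at 570 min. The late against early change, which averages over that decline, was 0.31 ± 0.21 in tph-1 and 0.25 ± 0.23 in N2 and did not pass the test in limma.

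**Figure D4:**
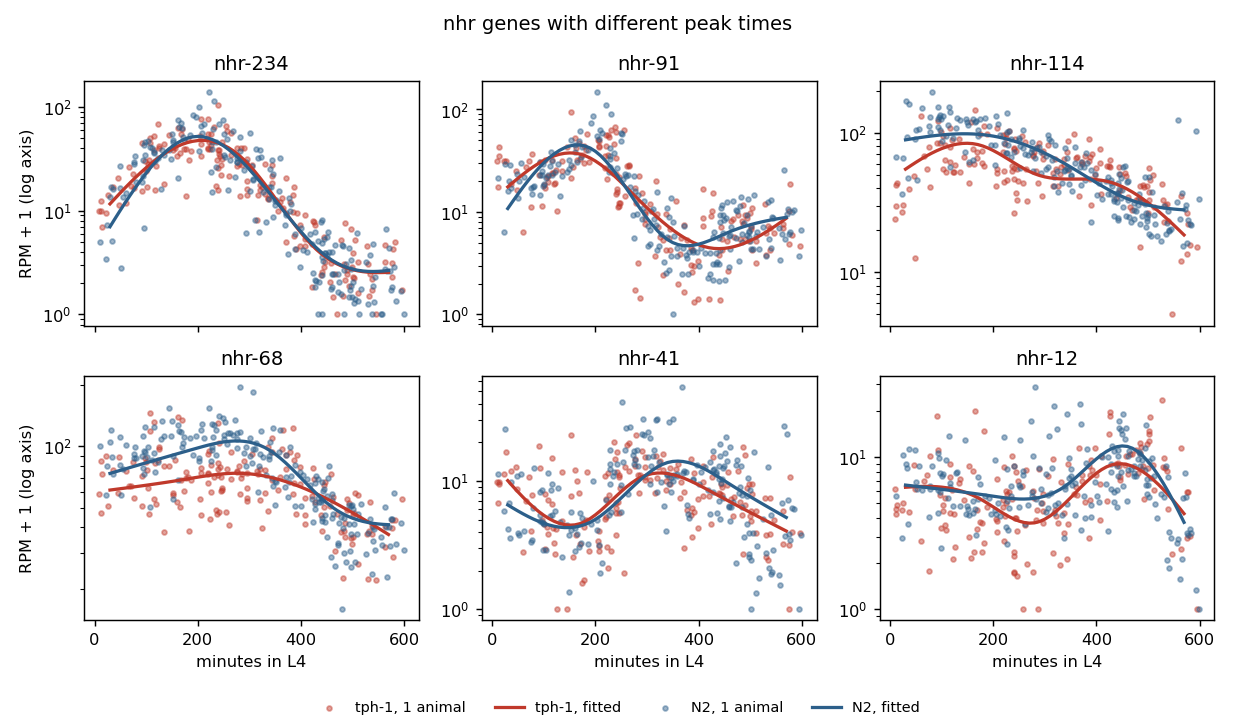
RPM + 1 on a log axis against minutes in L4 for 6 nhr genes; each point is 1 animal (red tph-1, blue N2) and each line the fitted curve of a strain at the mean of its sets. nhr-234 and nhr-91 peak between 150 and 210 min, nhr-41 between 320 and 360 min and nhr-12 at 450 min in the fitted curves of both strains.

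The receptors with known roles in the response to propionate and vitamin B12 included the most abundant members. Per kilobase of exon, the highest mean levels were those of nhr-68 at 53.3, nhr-114 at 39.9, nhr-49 at 22.6, nhr-31 at 22.2, nhr-234 at 18.1, nhr-46 at 16.7, nhr-8 at 15.1 and nhr-97 at 11.2 RPM per kb. nhr-10 and nhr-68 activate the propionate shunt when vitamin B12 is low, and nhr-114 responds to low methionine-cycle activity. The counts of this and the next lists stand beside all genes tested, of which 73.5% changed along L4 in tph-1 and 46.1% in N2, and 20.9% fell late in tph-1 and 7.19% in N2. Of these 3 receptors, 2 changed along L4 in tph-1 and 3 in N2, and 1 fell late in each strain, nhr-114.

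nhr-68 (WBGene00003658, chromosome V, 11573440 to 11575709, plus strand) had lowest, median and highest levels of 36.8, 70.7 and 144.1 RPM early, 38.8, 72.1 and 128.8 RPM in the middle and 21.1, 42.7 and 77.2 RPM late in tph-1. The N2 levels were 49.5, 93.5 and 153.3 RPM early, 50.1, 96.2 and 194.5 RPM in the middle and 14.9, 43.1 and 79.2 RPM late. Early and middle medians were close to each other in each strain and the late ones lower. The fitted peak was at 280 min in both strains, over 1.36 log2 units in N2; the range of 0.998 in tph-1 was just under the threshold. The late change was -0.58 ± 0.11 in tph-1 and -0.62 ± 0.12 in N2, short of the size threshold, and in tph-1 it became 0.044 after rescaling. nhr-10 had medians of 21.4, 10.99 and 9.14 RPM in tph-1 and 24.3, 14.9 and 10.4 RPM in N2, with peaks at 30 min and late changes of -0.90 ± 0.15 in tph-1 and -0.74 ± 0.16 in N2.

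nhr-114 (WBGene00003704, chromosome V, 4187202 to 4190008, plus strand) had lowest, median and highest levels of 11.5, 62.4 and 145.1 RPM early, 25.7, 59.7 and 107.1 RPM in the middle and 3.96, 33.6 and 75.9 RPM late in tph-1. N2 animals had 35.4, 111.6 and 194.5 RPM early, 22.002, 67.4 and 137.1 RPM in the middle and 14.3, 29.1 and 122.6 RPM late. The early medians stood further apart between the strains than the late ones. It fell with a late change of -1.31 ± 0.13 in tph-1 (limma adjusted p = 5.56e-18) and -1.27 ± 0.15 in N2 (adjusted p = 2.63e-13), with fitted peaks at 150 min in tph-1 and 140 min in N2. Another listed gene overlaps its span, and whether counting used strand is not given in the sources used here, so reads of the 2 genes cannot be told apart there. The same holds for 38 of the 235 receptors in all, among them nhr-6, nhr-8, nhr-57, nhr-60, nhr-64, nhr-69, nhr-85, nhr-86 and nhr-91.

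The enzymes of the propionate shunt were mostly not called. Of acdh-1, ech-6, hach-1, hphd-1 and alh-8, 0 rose or fell late in either strain, and 1 changed along L4 in tph-1, acdh-1, the acyl-CoA dehydrogenase at the head of the shunt. Its medians were 3771, 5519 and 5167 RPM in tph-1 and 3863, 3477 and 3768 RPM in N2, with fitted peaks at 430 min in tph-1 and 440 min in N2. The median late change of the 5 enzymes was -0.18 in tph-1 and -0.40 in N2, and after TMM rescaling it was 0.46 in tph-1, the opposite sign, and -0.14 in N2. In the methionine and SAM cycle, 4 of 5 genes changed along L4 in tph-1 and 5 in N2, and 3 fell late in tph-1 and 1 in N2. sams-1, the synthetase of S-adenosylmethionine, had medians of 3711, 2509 and 611 RPM in tph-1 and 3971, 2159.7 and 505 RPM in N2, and fell with a late change of -2.40 ± 0.16 in tph-1 and -1.92 ± 0.20 in N2. metr-1, the methionine synthase that uses vitamin B12, fell with a late change of -1.17 ± 0.14 in tph-1 and had a change of -0.94 ± 0.11 in N2, short of the size threshold. The peaks of these 5 cycle genes lay between 170 and 260 min in both strains.

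The lipid receptors had shares of late calls near those of all genes or below. Of the receptors in the role lists that fell late, nhr-91 in tph-1 and nhr-114 in N2 passed after TMM rescaling as well, and the others did not. Of nhr-49, nhr-66, nhr-13, nhr-62, nhr-76 and nhr-64, 3 changed along L4 in tph-1 and 1 in N2, and 1 fell late in tph-1 and 0 in N2, where 20.9% and 7.19% of all genes did; their median late change was -0.71 in tph-1 and -0.44 in N2, and -0.12 and -0.19 after rescaling. nhr-49 (WBGene00003639, chromosome I, 9869651 to 9874680, plus strand), which controls fatty acid oxidation and desaturation, had lowest, median and highest levels of 29.8, 50.6 and 82.9 RPM early, 18.9, 35.3 and 82.2 RPM in the middle and 16.9, 34.6 and 55.6 RPM late in tph-1. Levels in N2 were 45.8, 67.9 and 114.3 RPM early, 22.95, 58.8 and 138.8 RPM in the middle and 18.7, 37.2 and 70.6 RPM late. Its fitted range was 0.70 log2 units in tph-1 and 0.75 in N2, and its late change of -0.55 ± 0.092 in tph-1 became 0.07 after rescaling, against -0.38 ± 0.10 and -0.12 in N2.

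nhr-66 and nhr-13 are partners of NHR-49. nhr-66 had medians of 36.9, 30.7 and 27.9 RPM in tph-1 and 50.5, 41.1 and 28.3 RPM in N2, with late changes of -0.36 ± 0.11 and -0.32 ± 0.10. After rescaling the tph-1 value turned to 0.26 (limma adjusted p = 0.0187). nhr-13 was the receptor of this list that fell, with a late change of -1.02 ± 0.15 in tph-1, with medians of 10.2, 5.70 and 4.31 RPM in tph-1 and 12.2, 7.07 and 5.05 RPM in N2. nhr-62, needed for the longevity of diet-restricted animals, had medians of 8.10, 5.19 and 3.37 RPM in tph-1 and 9.22, 4.99 and 3.31 RPM in N2. nhr-76, which acts in the fat loss that serotonin drives, had medians of 10.8, 8.32 and 7.82 RPM in tph-1 and 9.34, 10.9 and 9.96 RPM in N2. From RPM nhr-76 was not called in either strain. Its late changes were -0.023 ± 0.21 in tph-1 (limma adjusted p = 0.918) and 0.42 ± 0.20 in N2 (adjusted p = 0.0732). After rescaling they were 0.56 in tph-1 (limma adjusted p = 0.00104) and 0.66 in N2 (adjusted p = 0.000682), short of the size threshold. Its N2 curve then passed the time test, over 1.07 log2 units (limma adjusted p = 0.00196).

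The fatty acid genes under nhr-49 moved in both directions. Of the 8 tested of 9 listed (fmo-2 was not tested), 7 changed along L4 in tph-1 and 6 in N2; late, 1 rose and 3 fell in tph-1, and 1 rose and 2 fell in N2. icl-1, the glyoxylate cycle enzyme, rose with a late change of 1.47 ± 0.21 in tph-1 and 1.24 ± 0.26 in N2. fat-6, a stearoyl-CoA desaturase, fell with a late change of -1.22 ± 0.14 in tph-1 and -2.19 ± 0.30 in N2. mdt-15, the Mediator subunit that works with NHR-49, had medians of 158.4, 89.6 and 88.7 RPM in tph-1 and 169.3, 119.1 and 101.4 RPM in N2 and late changes of -0.69 ± 0.11 and -0.38 ± 0.12, short of the size threshold.

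Of the HNF4-type receptors with a described role (nhr-14, nhr-31, nhr-49, nhr-64 and nhr-69), 4 changed along L4 in tph-1 and 3 in N2, and 1 fell late in tph-1 and 0 in N2. nhr-14, which acts in iron handling and intestinal defence, was the one that fell, with a late change of -1.07 ± 0.13 in tph-1, and it had a change of -0.91 ± 0.16 in N2. Its medians were 20.3, 11.7 and 7.26 RPM in tph-1 and 30.8, 17.6 and 7.76 RPM in N2. nhr-31, required in the excretory cell (WBGene00003625, chromosome IV, 8022655 to 8029513, minus strand), had lowest, median and highest levels of 31.5, 72.8 and 110.1 RPM early, 13.7, 33.6 and 81.4 RPM in the middle and 14.2, 29.4 and 59.1 RPM late in tph-1. In N2 it had 55.3, 100.9 and 196.2 RPM early, 18.2, 54.9 and 143.6 RPM in the middle and 16.9, 33.2 and 58.9 RPM late. Each window's median was lower in tph-1, with overlapping ranges, and the late changes of -0.99 ± 0.12 in tph-1 and -0.87 ± 0.12 in N2 were just short of the size threshold. nhr-64 had medians of 15.4, 8.25 and 7.43 RPM in tph-1 and 15.8, 11.3 and 8.56 RPM in N2, and nhr-69 had 13.9, 8.67 and 5.91 RPM in tph-1 and 17.8, 10.3 and 6.51 RPM in N2.

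Of 5 receptors of the response to xenobiotics, low oxygen, mitochondrial stress and pathogens, 5 changed along L4 in tph-1 and 3 in N2, and 2 fell late in tph-1 and 1 in N2. nhr-8, which acts in detoxification and cholesterol balance, fell in both, with late changes of -1.15 ± 0.16 in tph-1 and -1.05 ± 0.20 in N2, with medians of 38.8, 23.8 and 15.7 RPM in tph-1 and 52.3, 28.3 and 11.4 RPM in N2. nhr-57, a target of the hypoxia factor HIF-1, fell with a late change of -1.05 ± 0.29 in tph-1, against a change of -0.34 ± 0.30 in N2 that did not pass (limma adjusted p = 0.349). nhr-45, which acts in the mitochondrial stress response, had medians of 20.7, 12.2 and 11.9 RPM in tph-1 and 26.9, 16.9 and 14.5 RPM in N2; its late change of -0.49 ± 0.13 in tph-1 turned to 0.11 after rescaling. nhr-176, needed for the response to the drug thiabendazole, had medians of 5.40, 2.84 and 2.23 RPM in tph-1 and 5.96, 4.47 and 2.87 RPM in N2.

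The receptors of conserved families and of development had the largest share of late calls among the 5 role lists in tph-1. Of 9 members, 9 changed along L4 in tph-1 and 8 in N2, beside 73.5% and 46.1% of all genes, and 5 fell late in tph-1 and 1 in N2, beside 20.9% and 7.19% of all genes; their median late change in tph-1 was that of nhr-40, just past 1 log2 unit down, and -0.65 in N2, and -0.49 and -0.41 after rescaling. nhr-85, the relative of insect E75 and vertebrate Rev-erb that acts in developmental timing (WBGene00003675, chromosome I, 13055201 to 13062122, minus strand), had lowest, median and highest levels of 0.692, 9.68 and 33.6 RPM early, 0, 3.02 and 19.2 RPM in the middle and 0, 3.86 and 22.2 RPM late in tph-1. In N2 they were 0.970, 7.20 and 36.6 RPM early, 0, 2.68 and 18.9 RPM in the middle and 0, 2.51 and 20.4 RPM late. It was the member that fell in N2, with a late change of -1.12 ± 0.30 (limma adjusted p = 0.000681); in tph-1 its change of -0.997 ± 0.27 was just under the size threshold.

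In tph-1 the members that fell were nhr-91, nhr-48, nhr-60, nhr-6 and nhr-40. nhr-48, of the same subfamily as nhr-8, fell with a late change of -1.17 ± 0.20, with medians of 29.03, 14.7 and 13.8 RPM in tph-1 and 25.7, 17.8 and 13.3 RPM in N2. nhr-60, which acts in embryonic seam cells, fell with a late change of -1.21 ± 0.25, and nhr-6, the NR4A receptor of spermatheca development, with one of -1.14 ± 0.29. nhr-6 had medians of 11.9, 4.39 and 3.29 RPM in tph-1 and 6.56, 5.28 and 4.56 RPM in N2. nhr-40, which acts in muscle development, fell just past the size threshold in tph-1, with medians of 15.8, 8.39 and 5.64 RPM there and 17.2, 12.7 and 6.92 RPM in N2. nhr-67, the tailless homolog that acts in the anchor cell, vulva and uterus, had medians of 6.81, 3.23 and 2.76 RPM in tph-1 and 5.69, 4.49 and 2.59 RPM in N2 and a late change of -0.99 ± 0.21 in tph-1, just short of the size threshold. nhr-2, described in early embryos, was the member with no call along L4 in N2.

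Strain was tested over the sets: each set's level at equal minutes was compared between 4 tph-1 and 8 N2 sets in limma. 0 of 235 receptors were higher in tph-1 and 0 lower, where 0.274% of all genes were higher and 0.209% lower. At an unadjusted p under 0.05, 17 receptors were higher in tph-1 and 25 lower, beside 1572 and 3038 of all genes. The median strain difference of the receptors was -0.088, beside -0.050 for all genes, and after TMM rescaling -0.031, beside 0.020. Over animals without regard to set 39 were called higher and 90 lower, and with edgeR 64 and 71, tests that treat animals of 1 set as independent. A list with no call does not show that the strains have equal levels.

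The sign differed between ranges of level. Of 45 receptors with a mean of at least 10 RPM, 40 were lower in tph-1 (median -0.21, equal to the -0.21 of all genes in that range). Of all 7688 genes in that range, 5857 were lower. Of 107 receptors from 3 to under 10 RPM, 79 were lower in tph-1 (median -0.13), while all genes in that range had a median of 0.013, with 2710 higher and 2521 lower. Of 83 receptors from 1 to under 3 RPM, 53 were higher in tph-1 (median 0.12, beside 0.19 for all genes in that range). Of all 3857 genes in that range, 3034 were higher, a larger share than of the receptors. Of the 17 receptors higher at an unadjusted p under 0.05, 16 came from this range, beside 757 of 1572 for all genes. In the same animals the summed level of all genes from 1 to under 3 RPM had medians of 10236, 5338 and 5394 RPM early, middle and late in tph-1 and 5983, 5389 and 4395 RPM in N2. The part of library breadth in these differences was not tested.

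The 5 receptors of smallest p were nhr-262, nhr-86, nhr-31, nhr-2 and nhr-96. That p comes from the same set levels given below, so how their sets lie is a description and no further support. nhr-86, an intestinal receptor of the pathogen response (WBGene00003676, chromosome V, 2061106 to 2066850, minus strand), had lowest, median and highest levels of 4.29, 15.6 and 24.7 RPM early, 3.11, 9.74 and 21.4 RPM in the middle and 3.69, 8.49 and 14.1 RPM late in tph-1. The N2 levels were 12.6, 22.4 and 39.6 RPM early, 5.90, 14.2 and 27.9 RPM in the middle and 3.52, 10.4 and 22.4 RPM late. Its 4 tph-1 sets lay at -0.60, -0.29, -0.22 and -0.18 and its 8 N2 sets at -0.12, -0.095, 0.12, 0.22, 0.24, 0.26, 0.32 and 0.35, in log2 units from the mean of the 12 sets, so the sets of the strains did not overlap. Between strains nhr-86 differed by -0.49 ± 0.14 (unadjusted p = 0.00173 and adjusted p = 0.0824 in limma).

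nhr-96 (WBGene00003686, chromosome V, 2233477 to 2235180, plus strand) showed the same order at a lower level. Its medians were 3.85, 2.01 and 1.47 RPM early, middle and late in tph-1 and 5.30, 3.28 and 2.03 RPM in N2. The tph-1 sets lay at -0.39, -0.37, -0.34 and -0.19 and the N2 sets at -0.15, -0.0037, 0.07, 0.081, 0.15, 0.36, 0.39 and 0.39, again without overlap, and the difference was -0.48 ± 0.16 (limma adjusted p = 0.0935). For nhr-31 the difference was -0.54 ± 0.16 (adjusted p = 0.085), with 6 of 8 N2 sets above all tph-1 sets.

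For nhr-2 and nhr-262 the tph-1 sets lay above most N2 sets. nhr-262 (WBGene00008619, chromosome V, 16904912 to 16906787, plus strand) had lowest, median and highest levels of 0, 3.87 and 20.5 RPM early, 0, 2.11 and 22.8 RPM in the middle and 0, 1.72 and 17.4 RPM late in tph-1. N2 animals had 0, 0.675 and 8.79 RPM early, 0, 0.587 and 8.68 RPM in the middle and 0, 0.809 and 7.78 RPM late. Many animals of both strains had no read. The tph-1 sets lay at 0.46, 0.47, 0.60 and 0.71 and 7 of 8 N2 sets lay below all of them; the difference was 0.84 ± 0.22 (limma adjusted p = 0.0726). nhr-2 had medians of 2.56, 1.49 and 1.81 RPM in tph-1 and 0.583, 0.614 and 0.761 RPM in N2 and a difference of 0.68 ± 0.21 (adjusted p = 0.0887), again with 7 of 8 N2 sets below all tph-1 sets. For both genes the N2 set above the others was set 7, and without it 13 receptors were called higher in tph-1 and 8 lower; without N2 set 8, 1 was called higher and 2 lower. Against N2 sets 6 to 8 alone, a comparison chosen after the data were seen, the differences were 0.44 for nhr-262, 0.18 for nhr-2 and -0.16 for nhr-31.

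**Figure D5:**
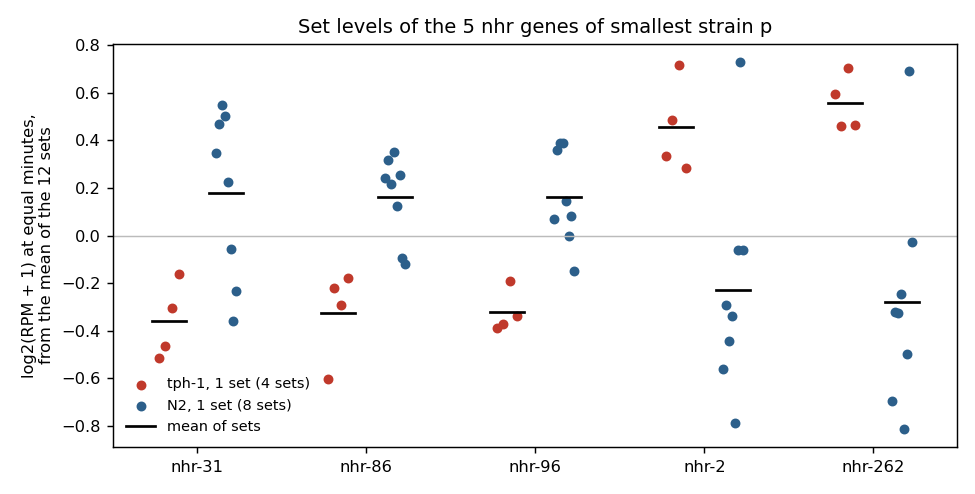
Level at equal minutes of the 5 nhr genes of smallest strain p in each set, in log2(RPM + 1) from the mean of the 12 sets; each point is 1 set (4 of tph-1 left, 8 of N2 right) and each line the mean of a strain's sets. The sets of nhr-86 and nhr-96 do not overlap between strains, and those of the other 3 genes do. The genes were chosen by the p of these same levels.

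Among the pathway genes, 2 fatty acid genes were higher in tph-1 and 2 lower by the same test. fat-7, a stearoyl-CoA desaturase, had medians of 30.1, 97.001 and 35.4 RPM in tph-1 and 1.35, 1.15 and 0.700 RPM in N2, a difference of 4.24 ± 0.36 (limma adjusted p = 2.85e-07), and fat-6 differed by 1.49 ± 0.26. acs-2, an acyl-CoA synthetase, differed by -1.03 ± 0.19 and hacd-1, a hydroxyacyl-CoA dehydrogenase, by -1.04 ± 0.23. nhr-49 itself differed by -0.42 ± 0.17 (adjusted p = 0.132), nhr-66 by -0.33 ± 0.14 and nhr-13 by -0.21 ± 0.14, none past the test. Of the propionate shunt, the methionine cycle and mdt-15, 0 genes were called by this comparison of levels between strains.

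The difference between the strains' time courses was tested over animals as an interaction of strain with the curve. Apart from a level fitted for each set, that test treats animals of 1 set as independent, and every set holds 1 strain. The interaction had an unadjusted p under 0.05 for 29 of 235 receptors, beside 2459 of 16776 genes. It was past the adjusted threshold for 2 receptors (0.851%), nhr-114 and nhr-265, where 1.93% of all genes were. Of the 19 pathway genes tested, metr-1 (limma adjusted p = 0.00854), fat-5 (1.51e-05) and fat-6 (0.000369) also passed. nhr-114 had an adjusted p of 0.0121. Its median was lower in tph-1 than in N2 early and in the middle window and slightly higher late, as given above. The late change differed by -0.045 ± 0.20 in tph-1 minus N2, and by 0.31 after TMM rescaling.

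nhr-265 (WBGene00009608, chromosome I, 12251906 to 12253636, plus strand) had lowest, median and highest levels of 1.04, 3.85 and 11.6 RPM early, 0, 0.551 and 11.4 RPM in the middle and 0, 0.366 and 3.17 RPM late in tph-1. Levels in N2 were 0, 7.60 and 31.2 RPM early, 0, 0.368 and 15.9 RPM in the middle and 0, 0 and 2.48 RPM late. The early median was higher in N2, and 27 of 47 late tph-1 animals and 31 of 77 late N2 animals had a read. It fell with a late change of -1.77 ± 0.18 in tph-1 and -2.21 ± 0.25 in N2, a difference of 0.44 ± 0.31 (interaction adjusted p = 0.0285, limma). The count depended on single sets: 0 receptors were called without tph-1 set 1, 1 without N2 set 2, 4, 5 or 6, 4 without N2 set 3, and 5 without tph-1 set 3.

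The 235 receptors were spread unevenly over the genome. Chromosome V carried 150 of them (63.8%), where it carried 23.4% of all tested genes with a position. Those on V were lower: their median was 2.46 RPM per kb of exon, beside 4.45 on the other chromosomes, and 9 of 150 had a mean of at least 10 RPM, against 36 of 85 elsewhere. On V, 99 of 150 receptors had another nhr gene as the next protein-coding gene on 1 side or both, against 23 of 85 (27.1%) elsewhere. Such neighbours can be close copies, and the handling of reads that fit more than 1 copy is not given. The median late change on V was -0.89 in tph-1 and -0.50 in N2, and off V it was -0.95 in tph-1 and -0.51 in N2.

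Animals of 1 strain at equal minutes still differed. Around the fitted curve the SD between animals had a median of 0.76 log2 units over the receptors in tph-1 and 0.65 in N2, beside 0.74 and 0.68 over all genes. It fell with level: receptors of at least 10 RPM had medians of 0.53 in tph-1 and 0.50 in N2, and those from 1 to under 3 RPM had 0.88 in tph-1 and 0.72 in N2. Among the named receptors nhr-46 was one of the least variable, with an SD of 0.32 in tph-1 and 0.31 in N2, and nhr-49 had 0.33 in tph-1 and 0.27 in N2. nhr-57 had 1.12 in tph-1 and 0.96 in N2. At these depths an RPM of 1 is about 1.76 reads in a median tph-1 library and 2.92 in a median N2 library, so counting error is part of the spread of low receptors.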

How the data were processed

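Single L4 animals of strain MT15434 (tph-1(mg280) II, 164 animals) and of N2, 357 animals in all, were lysed whole and sequenced as 1 polyA Nextera library each, per the labels' protocols. The authors deposited 1 table of RPM values for each strain, with 19379 genes for tph-1 and 19382 for N2. Reads were aligned with STAR 2.7.9a, per the submitters' processing notes; no genome build, annotation, strand setting or rule for reads with several hits is given in the sources used here. The deposited RPM steps gave whole reads for 100% of values within 0.1 reads, so depth and a count test could be recovered. All columns were matched to labelled animals.

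Here log2(RPM + 1) of the 16776 genes with a mean of at least 1 RPM was fitted in limma 3.58.1 with trend (R 4.3.3), with p-values Benjamini-Hochberg adjusted over all of them and set as a covariate. Time courses were natural splines of the minutes with 4 degrees of freedom, read every 10 min between 30 and 570 min. Strains were compared over the intercepts of the 12 sets, and the strain-by-time interaction over animals. Nothing in the labels says that sets are independent cultures, so p-values measure the spread between these sets and animals. edgeR 4.0.16 on recovered reads, TMM rescaling, pseudocounts, filters, spline and window settings and leaving out sets were tried as alternatives, 28 in all. Scripts were tested on simulated data. Sums and figures were made in Python 3.11.15.

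The receptors, role lists, pathway lists and markers were chosen with earlier results of these data known. Receptors named are those of the role lists, the 5 largest increases and decreases past each threshold (the 6 smallest p for spline tests), the 8 highest per kb of exon, and the 5 smallest strain p. Positions, exon lengths and neighbours come from the Ensembl 115 annotation of WBcel235, in which all 235 receptors were found by symbol; nhr-80 was listed for tph-1 only and is not analysed here.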

Additional observations from a re-analysis of the deposited data

Results flagged for a closer look

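The interaction of strain with time was past the adjusted threshold for 2 receptors (0.851%), where 1.93% of all genes were. That test treats animals of 1 set as independent apart from the set's level, and every set holds 1 strain. Without tph-1 set 1, 0 receptors were called. For nhr-114 the interaction had an adjusted p of 0.0121 in limma, while the late against early change in tph-1 minus that in N2 was -0.0453 ± 0.20. For nhr-265 the adjusted p was 0.0285 and the same difference was 0.444 ± 0.31. Among 14 groups of 4 to 8 set levels, 0 held a set that stood apart by Dixon's criterion, where about 1 in 20 groups would by chance. With so few groups a count of 0 is not informative. Single sets still mattered for the strain test: without N2 set 7, 13 receptors were called higher in tph-1 and 8 lower.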

How the results depend on the processing

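Counts of called receptors depended most on scale and pseudocount. From RPM the shares of receptors called along L4 and lower late were above those of all genes in tph-1. In N2 they were near those of all genes, at 50.2% beside 46.1% along L4 and 7.66% beside 7.19% lower late. After TMM rescaling the shares were below those of all genes in both strains. For the 207 called along L4 in tph-1 the count was 65 with a pseudocount of 5, 53 after TMM rescaling and 96 with edgeR; for the 50.2% called in N2 it was 38, 58 and 77 receptors. The 88 that fell late in tph-1 became 7, 9 and 24 under the same settings. The 18 in N2 became 5, 7 and 11, and 28 with a pseudocount of 0.5, 87 without the set covariate, 6 with windows at 150 and 450 min, and 12 to 44 when 1 set was left out. The 0 that rose late became 1 in each strain with edgeR. The 1 higher in the middle than the mean of the ends became 0 with a pseudocount of 5 in each strain, and 2 in N2 with edgeR. The 0 lower in that contrast in tph-1 became 1 with edgeR; the 2 in N2 became 0 with a pseudocount of 5, after TMM rescaling and without the set covariate, 3 with edgeR, 1 with the other windows, and 0 to 2 when 1 set was left out.

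Between strains the 0 higher and 0 lower became 64 and 71 with edgeR, 39 and 90 over animals without a set term, and 3 and 2 with sets weighted by animals. Leaving out 1 set gave 0 to 13 higher and 0 to 8 lower. Sets 1 to 4 of each strain share numbers; without a replicate block 18 were higher and 32 lower, and with the block 23 and 45. The deviations of same-numbered sets correlated across genes at 0.15, -0.052, 0.00064 and 0.030, beside -0.22 to 0.21 for sets of different number. These values do not show that the numbers pair the sets, and so few cannot exclude it. The 2 with an interaction became 1 with a pseudocount of 0.5, 4 with 5, 4 with edgeR, 1 with 3 spline degrees of freedom, and 0 to 5 when 1 set was left out. The near-zero nhr-114 difference turned to 0.309 after TMM rescaling and 0.236 with edgeR, and ranged from -0.18 to 0.0285 when 1 set was left out. The cause of these shifts was not tested. Over single named genes, 1212 values kept direction and call, 199 kept direction and lost the call, 31 gained one and 6 reversed.

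Early and late N2 animals meet in 4 sets with 1 or 2 late animals each, and every set holds 1 strain. Low receptors rest on few reads: 1 RPM is 1.76 reads in a median tph-1 library and 2.92 in a median N2 library.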
